A study of Mus musculus with 4 samples.

Results

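The genes described here form the epithelial-mesenchymal transition and ZEB axis: the transcription factors Zeb1, Zeb2, Snai1, Snai2 and Twist1, the cadherins Cdh1 and Cdh2, the splicing regulator Esrp1, the epithelial transcription factor Grhl2 and the adhesion molecule Epcam. These 10 genes were chosen by name, and a gene was measured where the array annotation pairs a transcript cluster with that symbol alone. By this rule 9 of the 10 were measured, through 11 transcript clusters out of 41345 on the array (22180 named genes). Zeb2 is paired with a second symbol on each of its 2 clusters and is not analysed here.

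Expression was read from 4 microarrays (Affymetrix Mouse Gene 2.0 ST), with 1 array for each of 4 groups of mouse embryos on a mixed C57BL/6J x FVB/N background. At E12.5 (embryonic day) the head was taken from a wild-type and from a Tbx1 knockout group, and at E13.5 the palatal shelves, the outgrowths that form the secondary palate, from a group of each genotype. Tbx1 is a T-box gene whose factor the pharyngeal apparatus needs to form, and the study asked how expression differs without it. The sources used here give neither the knockout allele nor whether embryos were pooled. All values are log2 expression after RMA, the authors' background correction and normalization, so a difference of 1 is a 2-fold difference. Tbx1 was at 6.83 and 6.25 in the wild-type and knockout head and at 7.39 and 6.18 in the wild-type and knockout shelves, lower in the knockout both times, though whether its probes lie in the deleted part is not stated. The labelled tissues were checked against markers: 9 of 12 palatal and facial mesenchyme markers were higher and 14 of 14 neuron markers lower in the shelves than in the head (limma, below 0.05 after adjustment). Of all genes tested, 13% were called higher and 14.9% lower. With 1 array per group, a difference between genotypes within a tissue has no replicate check and no p-value, so precision is limited by the small number of arrays.

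In epithelial-mesenchymal transition (EMT), cells of a sheet lose their junctions and take on the shape and movement of mesenchyme. ZEB, Snail and Twist factors drive it, and ZEB and Snail proteins repress epithelial genes such as Cdh1 by binding short E-box sequences in their promoters. The miR-200 microRNAs repress ZEB messages, and ZEB proteins repress the miR-200 genes in turn. In the face, Snail and Twist factors also mark neural crest-derived mesenchyme, and the oral and nasal epithelia carry the epithelial genes.

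The sequences of the miR-200 family and of miR-205, which also targets ZEB messages, are shown because their seeds (bases 2 to 8, in capitals) set which messages they pair with. All were taken from RefSeq (GRCm38.p6), 5′ to 3′, on the minus strand. The first 3 share the seed AAUACUG:
miR-200b-3p, chr4:156055685-156055706: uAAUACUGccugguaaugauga
miR-200c-3p, chr6:124718324-124718346: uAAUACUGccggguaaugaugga
miR-429-3p, chr4:156053916-156053937: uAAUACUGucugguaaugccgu
The next 2 share AACACUG:
miR-200a-3p, chr4:156054911-156054932: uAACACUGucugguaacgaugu
miR-141-3p, chr6:124717917-124717938: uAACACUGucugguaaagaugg
The seed of miR-205, CCUUCAU, is shared with none of these:
miR-205-5p, chr1:193507503-193507524: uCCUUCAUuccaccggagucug

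Promoter windows are shown because ZEB and Snail proteins bind E-box sequences, as described above. The 250 bases before the RefSeq start site were searched for the E-box CACCTG on both strands (CAGGTG is its reverse complement), and matches are in capitals. Of the 9 measured members, a window was searched for 3: Epcam with 2 copies, Snai1 with 1 and Twist1 with 0. The other epithelial members, Cdh1, Esrp1 and Grhl2, had no window to search. Among all 32851 windows 17.2% hold a copy and 2.06% hold 2 or more.
Epcam, chr17:87635729-87635978, plus strand: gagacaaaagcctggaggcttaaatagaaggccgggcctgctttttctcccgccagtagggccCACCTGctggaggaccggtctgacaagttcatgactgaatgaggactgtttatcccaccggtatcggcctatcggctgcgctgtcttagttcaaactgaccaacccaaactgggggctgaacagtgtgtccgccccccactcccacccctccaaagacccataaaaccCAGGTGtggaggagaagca
Snai1, chr2:167537945-167538194, plus strand: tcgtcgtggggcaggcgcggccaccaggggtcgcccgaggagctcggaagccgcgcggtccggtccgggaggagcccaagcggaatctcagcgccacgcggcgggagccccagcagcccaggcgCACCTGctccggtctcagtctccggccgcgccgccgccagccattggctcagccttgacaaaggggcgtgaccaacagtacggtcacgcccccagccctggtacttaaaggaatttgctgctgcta
The copies before Epcam begin at positions -187 and -19 from the start site, and the copy before Snai1 at position -126. In 3 lists of other epithelial genes (transcription factors, adhesion genes, and trafficking and protease genes), 17 of the 30 genes with a window (56.7%) held at least 1 copy, against 19.4% of 27025 genes with a window, and 9 (30%) held at least 2 in a window, against 2.39%. Ap1m2, an epithelial clathrin adaptor subunit, and Lsr, a protein of tricellular junctions, held the most, 4 each; the window of Ap1m2 is printed to show their spacing, at -81, -51, -21 and -9.
Ap1m2, chr9:21312334-21312583, minus strand: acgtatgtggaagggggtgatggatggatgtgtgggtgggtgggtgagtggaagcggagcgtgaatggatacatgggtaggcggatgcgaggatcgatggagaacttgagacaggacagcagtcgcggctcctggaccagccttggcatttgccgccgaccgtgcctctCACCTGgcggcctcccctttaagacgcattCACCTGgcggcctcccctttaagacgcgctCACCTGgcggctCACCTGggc
A match is a description of the letters in the window and not a measured binding site. Whether the copies bear on the expression differences below was not tested.

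Between the tissues, the epithelial genes of the axis were higher in the palatal shelves than in the head in both genotypes, and Snai2 was higher with them, while Cdh2 and Zeb1 were lower. The difference was estimated by 1 additive limma fit of tissue and genotype over the 4 arrays (1 residual degree of freedom), on the 11999 genes whose highest array was at 6.16 or above (the median of all values of named genes). At a limma adjusted p under 0.05, 5 of the 9 measured members were called higher and 2 lower, against a background of 13% of genes called higher and 14.9% lower. With no filter on dim genes 5 were called higher and 1 lower, against 5.02% and 6.13% of 22180 genes. Tissue and stage differ together and cannot be told apart.

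**Figure D1:**
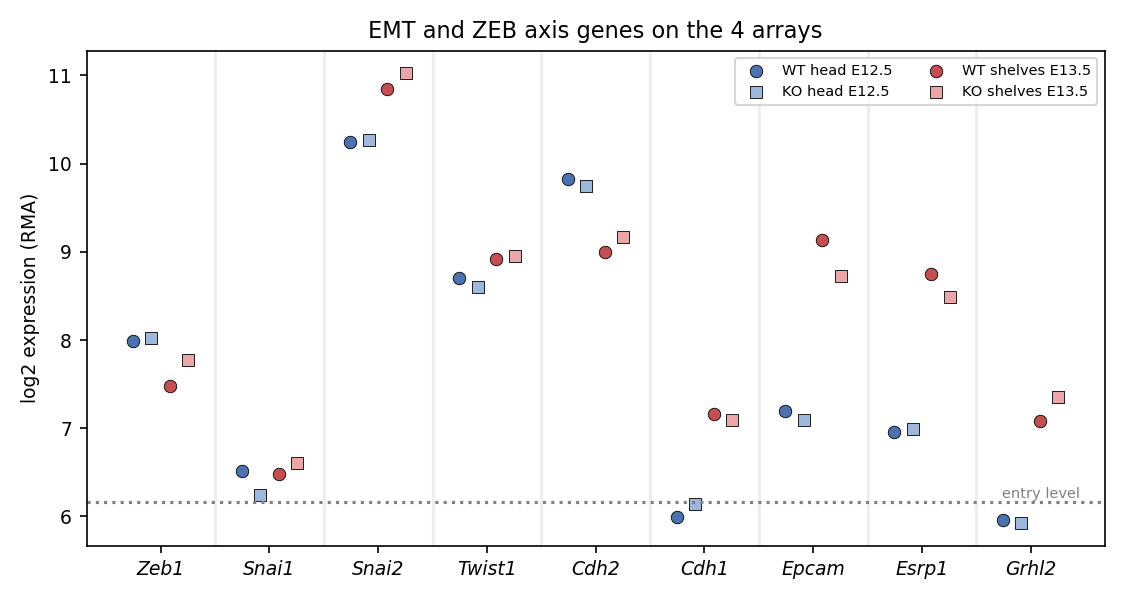
Log2 expression (RMA, vertical axis) of the 9 measured genes on the 4 arrays, 1 point per array; circles are wild type, squares Tbx1 knockout, blue the head at E12.5 and red the palatal shelves at E13.5. The dotted line is the level for entry, 6.16; the 2 shelf points lie above the 2 head points for Epcam, Esrp1, Cdh1, Grhl2, Snai2 and Twist1 and below them for Cdh2 and Zeb1.

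Epcam, a homophilic adhesion molecule of epithelia, was at 7.19 in the wild-type head, 7.09 in the knockout head, 9.14 in the wild-type shelves and 8.72 in the knockout shelves. Both shelf arrays lay above both head arrays, and the 2 tissues did not overlap. The difference was 1.79 (SE 0.12), or 3.45-fold, with a limma adjusted p of 0.00017, and only 0.5% of genes tested had a difference at least as high. Esrp1, which directs the epithelial splicing of Fgfr2 and other messages, was at 6.95 and 6.99 in the wild-type and knockout head and at 8.74 and 8.49 in the wild-type and knockout shelves. Again the shelf arrays stood above the head arrays, by 3.13-fold (log2 difference 1.65, SE 0.11, limma adjusted p = 0.000203).

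Cdh1, the E-cadherin gene, was at 5.99 and 6.14 in the wild-type and knockout head and at 7.17 and 7.09 in the shelves. The difference of 1.06 (SE 0.11, limma adjusted p = 0.000788) is the mean of 2 clusters that disagree in size. The brighter one read 7.74 and 7.88 in the head and 9.64 and 9.40 in the shelves, a difference of 1.71, and the dimmer one stayed between 4.24 and 4.78, with a difference of 0.42. Grhl2, a grainyhead-like factor that keeps up Cdh1 and other junction genes and is known to oppose Zeb1, was at 5.96 and 5.92 in the head and at 7.09 and 7.35 in the shelves, a 2.43-fold difference (log2 1.28, SE 0.12, limma adjusted p = 0.000502). Cdh1 and Grhl2 were below 6.16 on both head arrays and entered the fit through the shelves. With all 22180 genes in the fit, Cdh1 had a limma adjusted p of 0.0044 and Grhl2 of 0.00284.

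Among the EMT factors, Snai2, the Slug gene, which is active in migrating neural crest and its mesenchyme, was at 10.24 and 10.27 in the wild-type and knockout head and at 10.85 and 11.03 in the shelves. It rose with the epithelial genes, by 1.61-fold (log2 0.68, SE 0.10, limma adjusted p = 0.00378). Zeb1, a zinc finger and homeodomain repressor of epithelial genes, was at 7.99 and 8.02 in the head and at 7.48 and 7.77 in the shelves. Both shelf values were below both head values, with a difference of -0.38 (SE 0.11, limma adjusted p = 0.0468). That call lies near the threshold and was lost in 3 alternatives, with limma adjusted p of 0.0503 for the brightest cluster of each gene, 0.0607 for a repeated quantile normalization and 0.128 with no filter on dim genes.

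The remaining 2 factors did not pass. Twist1, a bHLH factor of cranial mesenchyme, was at 8.71 and 8.60 in the head and at 8.92 and 8.96 in the shelves, with a difference of 0.28 (SE 0.10, limma adjusted p = 0.0887, 95% interval 0.034 to 0.53 before adjustment). Snai1, the Snail gene, was at 6.52 and 6.24 in the head and at 6.48 and 6.60 in the shelves, and the tissues overlapped (difference 0.16, SE 0.13, limma adjusted p = 0.395, 95% interval -0.14 to 0.46).

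Cdh2, the N-cadherin gene of mesenchyme and of neural tissue, fell from 9.83 and 9.74 in the wild-type and knockout head to 9.002 and 9.16 in the shelves. The difference was -0.70 (SE 0.11, limma adjusted p = 0.00444), and its 2 clusters gave -0.75 and -0.65. Neural markers moved the same way as Cdh2 and Zeb1. The neuron markers, 14 of 14 of which fell, had a median difference of -1.97, and their summed level, on the linear scale, was 17628 and 17690 on the head arrays against 3563 and 5239 on the shelf arrays. Of 11 neural progenitor markers 10 fell (median -1.504), where 14.9% of all genes tested were called lower. The part of neural tissue in the levels of Cdh2 and Zeb1 was not tested, and in whole tissue fewer cells of a type and less RNA per cell cannot be told apart.

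**Figure D2:**
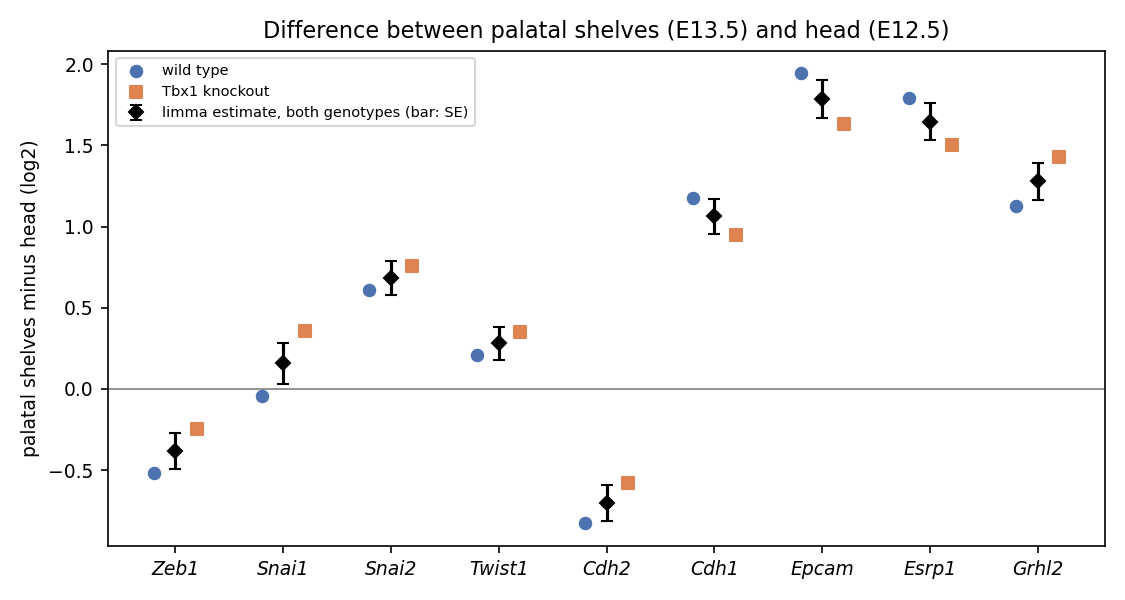
Palatal shelves minus head (log2, vertical axis) for the 9 measured genes; blue circles are the difference between the 2 wild-type arrays, orange squares that between the 2 knockout arrays, and black diamonds the limma estimate over both with its SE as a bar. Epcam lies highest at 1.79 and Cdh2 lowest at -0.70, and Snai1 is the gene for which the genotypes gave opposite signs (-0.041 in wild type and 0.36 in the knockout).

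The tissue differences had the same sign in wild type and knockout for 8 of the 9 genes, in pairs that share no array, as they had for 77.9% of the 11999 genes tested. In wild type they were 1.94 for Epcam, 1.79 for Esrp1, 1.18 for Cdh1, 1.13 for Grhl2, 0.61 for Snai2, -0.52 for Zeb1 and -0.83 for Cdh2. In the knockout they were 1.63 for Epcam, 1.5002 for Esrp1, 0.95 for Cdh1, 1.43 for Grhl2, 0.76 for Snai2, -0.25 for Zeb1 and -0.58 for Cdh2. Whether the tissue difference itself differs with genotype could not be tested, since a fit with that term leaves no residual degree of freedom.

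Other epithelial genes rose along with Epcam, Esrp1, Cdh1 and Grhl2. Of 41 genes in the 3 epithelial lists that entered the fit, 35 were called higher in the shelves, 1 lower and 5 did not pass, with a median difference of 0.98 against -0.020 over all genes tested. Because dim genes could enter through the shelves alone, the count was repeated with no filter: 35 of 50 were called higher and 1 lower, where 5.02% of all 22180 genes were called higher. Among transcription factors, the Ets factor gene Ehf differed by 2.76 (SE 0.099, limma adjusted p = 4.27e-05), from 4.53 and 4.59 in the head to 7.27 and 7.37 in the shelves. Its head values are well under the level for entry, so the size of this difference is uncertain, and Dsc2, Dsc3, Rab25 and Cd44, named next, were also under that level on both head arrays. Klf5 (1.61) and Trp63 (1.24), which encodes the p63 protein of stratified epithelia, also rose. Grhl3, the relative of Grhl2 expressed in periderm, rose by 0.93 on the log2 scale.

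Of 23 adhesion genes, 19 rose, among them the desmosomal cadherins Dsc3 (2.34) and Dsc2 (2.13) and the desmosome-associated Perp (2.06). Pard6b, a polarity gene, was the 1 that fell (-0.49, SE 0.099, limma adjusted p = 0.0121). All 10 trafficking and protease genes that entered rose, led by Rab25 (1.73), a GTPase of apical recycling, Mal2 (1.62), of transcytosis, and St14 (1.52), the membrane protease matriptase. Spint1 (1.34) and Spint2 (1.39) encode inhibitors of such proteases. The summed level of 11 epithelium markers, keratins among them and partly the same genes, was 1455 and 1465 on the head arrays and 4648 and 4400 on the shelf arrays, and 10 of the 10 that entered rose.

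**Figure D3:**
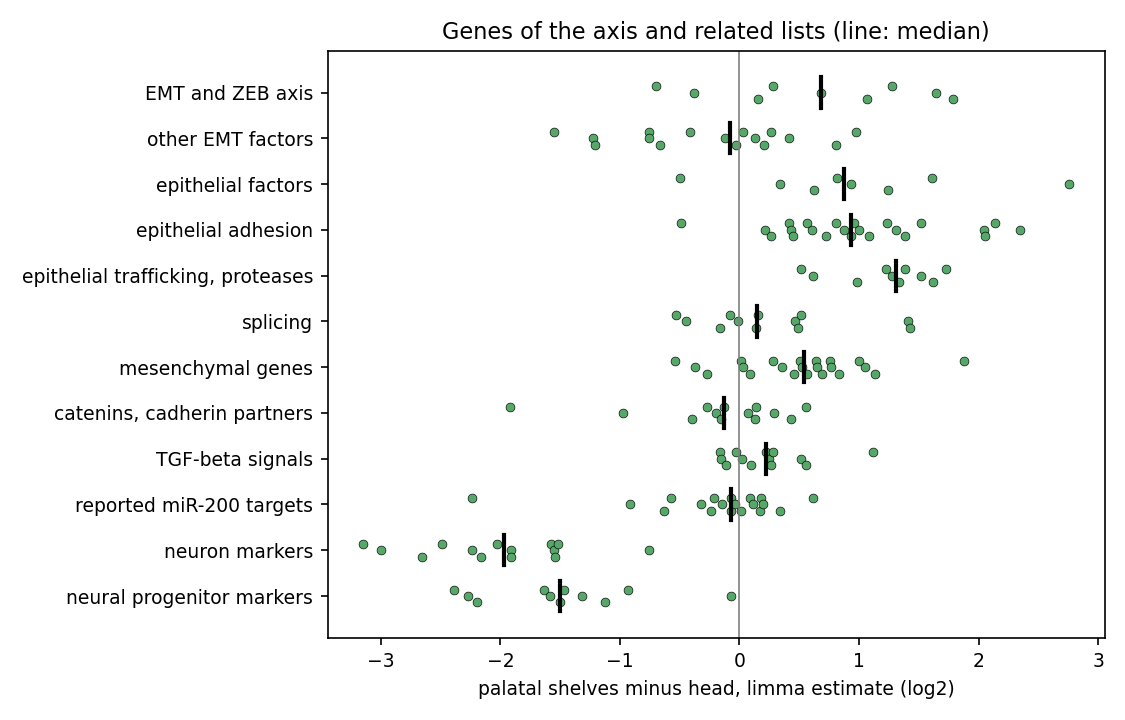
Palatal shelves minus head (log2 limma estimate, horizontal axis) for each gene that entered the fit, by list; points are genes, jittered vertically, and black lines are list medians. The 3 epithelial lists have medians of 0.87, 0.93 and 1.31, the mesenchymal list 0.54, and the neuron and neural progenitor markers -1.97 and -1.504.

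Mesenchymal genes were higher in the shelves as well. Of 22 adhesion, filament and matrix genes of mesenchyme, 15 rose and 2 fell, with a median of 0.54. Over all genes tested, 13% were called higher and 14.9% lower. Postn, the matrix protein periostin, rose most (1.88, SE 0.10, limma adjusted p = 0.000104), followed by Tnc (1.14), which encodes tenascin-C, and Lum (1.05), which encodes lumican. Vim, the intermediate filament gene vimentin, fell by 0.37 on the log2 scale (SE 0.10, limma adjusted p = 0.0373), and Cdh6, a cadherin, fell by 0.54. Cdh11, the cadherin of mesenchyme, rose by 0.65, opposite to Cdh2.

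The wider set of EMT factors went both ways, with 3 of 16 higher, 7 lower and a median of -0.076. For this list and the corepressors below, the shares over all genes tested were 13% called higher and 14.9% lower. Prrx1 (0.98) and Prrx2 (0.81), paired-type homeobox genes of craniofacial mesenchyme, rose along with Snai2. Twist2, the close relative of Twist1, differed by -1.23 (SE 0.13, limma adjusted p = 0.000941), with 6.59 and 6.90 in the head and 5.58 and 5.45 in the shelves. Lef1, a mediator of Wnt signalling, fell by 1.55 and Id4, an inhibitor of bHLH factors, by 1.21. Of the corepressors that ZEB and Snail factors recruit, Smarca4, a chromatin remodelling ATPase gene, fell most (-0.51, SE 0.099, limma adjusted p = 0.0107), Ctbp1 fell by 0.43 and Kdm1a by 0.36, Rcor1 rose by 0.37, and 5 of 9 did not pass.

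Among splicing genes, Esrp2, the relative of Esrp1, rose by 1.41 (SE 0.10, limma adjusted p = 0.000236), from 6.61 and 6.54 in the head to 7.95 and 8.02 in the shelves. Cd44, whose message is spliced under Esrp1 control, rose by 1.43 and Fgfr2 by 0.51, while Enah, another such message, fell by 0.53. These values read whole genes and not isoforms. Of 13 TGF-beta signals, receptors and mediators, 3 rose and 0 fell, where 13% of all genes tested were called higher and 14.9% lower. Those that rose were Tgfb3, the ligand of palatal fusion (1.12), Tgfb1 (0.56) and the receptor gene Tgfbr2 (0.51). Among 13 catenins and cadherin partners, the neural alpha-catenin gene Ctnna2 (-1.92) and the delta-catenin gene Ctnnd2 (-0.98) fell with the neuron markers, whereas Ctnnb1 (0.071, limma adjusted p = 0.643) and Ctnna1 (0.29, limma adjusted p = 0.075) did not pass.

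The microRNA loci were dim. Mir200a ranged from 4.33 to 5.23 on the 4 arrays, Mir200b from 4.63 to 5.21, Mir200c from 3.41 to 3.89 and Mir141 from 2.71 to 3.24, all under 6.16, and which form of the RNA these clusters read is not given. Mir205 entered through the shelves, with 5.41 on both head arrays, 6.61 in the wild-type shelves and 7.25 in the knockout shelves. Its difference between tissues was 1.52 (SE 0.16, limma adjusted p = 0.000896). Of 19 genes reported as miR-200 targets beside ZEB, 1 rose and 4 fell, with a median of -0.072. Among all genes tested, 13% were called higher and 14.9% lower. The neuronal tubulin gene Tubb3 (-2.23), which is also a neuron marker here, fell most.

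Profiles over the 4 arrays were compared after centring each gene on its own mean, with the Euclidean distance on the log2 scale, over 11998 other genes. Nearest to Epcam were F3 (distance 0.12), the tissue factor gene, Sptlc3 (0.16), a subunit of the enzyme that starts sphingolipid synthesis, Krt19 (0.19), a keratin of simple epithelia, and Esrp1 itself (0.21). Nearest to Grhl2 were Lama5 (0.078), a laminin chain of basement membranes, and Atp8b1 (0.086). Nearest to Cdh1 were Fkbp7 (0.035), Lum (0.063), a matrix gene of mesenchyme, and Tmem200b (0.065). The Cdh1 profile used is the mean of a brighter and a dimmer cluster. The brighter one alone differed by 1.71 between tissues and by -0.23 between genotypes in the shelves, and its nearest profiles were not sought. With 4 arrays, many genes that differ between the tissues have near profiles. To the mean of Cdh1, Esrp1, Grhl2 and Epcam, Frk (0.078), a tyrosine kinase gene, Adamts18 (0.087) and Spint2 (0.087) lay nearest.

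Between the genotypes, no member reached 1.5-fold in either tissue, and few genes did. In the head, 0 of the 7 members that entered were 2-fold different, against 0.088% of the 11364 genes that entered. In the palatal shelves, 0 of 9 were, against 0.935% of 11449. At 1.5-fold the members numbered 0 in either tissue, against 0.458% of genes in the head and 3.25% in the shelves. With shares this low, a count of 0 does not set the members apart from other genes. Over both tissues 0 of 9 members passed in the additive limma fit, 0 of 9 had an unadjusted limma p under 0.05, and of all 11999 genes 0 passed and 628 (5.23%) had an unadjusted p under 0.05. When limma's prior was given a trend with mean expression, 11 genes passed, and 0 of them were members.

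**Figure D4:**
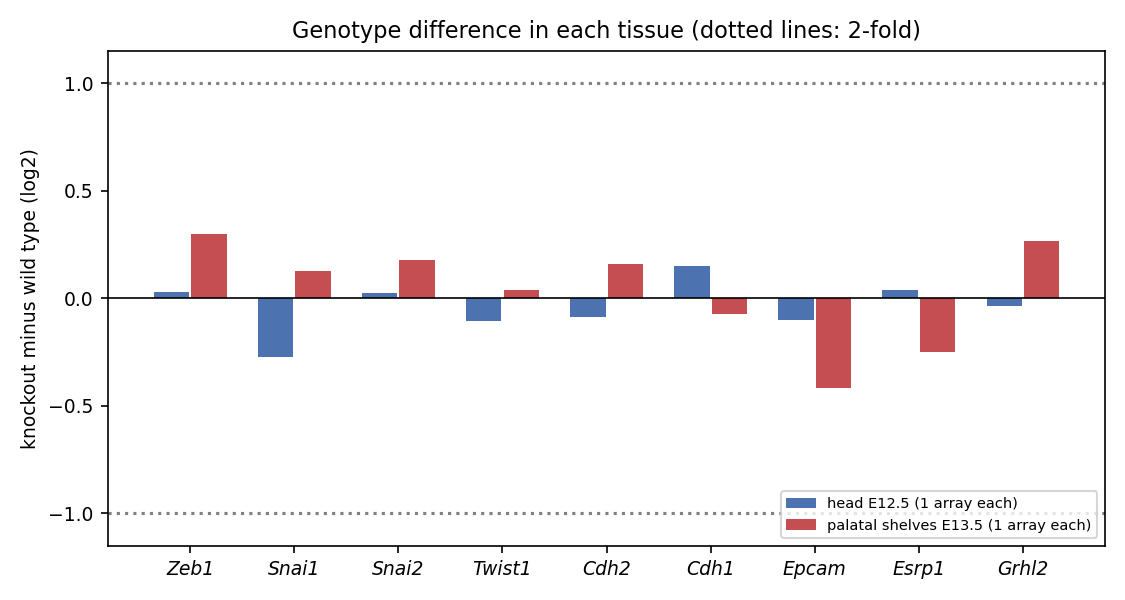
Knockout minus wild type (log2, vertical axis) for the 9 measured genes in the head (blue) and the palatal shelves (red), each bar the difference between 2 arrays, with dotted lines at 2-fold. No bar reaches a dotted line; the longest are Epcam (-0.42) and Zeb1 (0.30) in the shelves and Snai1 (-0.27) in the head.

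In the shelves Epcam was 1.33-fold lower in the knockout (8.72, against 9.14 in wild type), a difference that 7.17% of the genes that entered equalled or passed in either direction. Esrp1 was lower by a log2 difference of -0.25 and Cdh1 by -0.074, or by -0.23 in its brighter cluster. Zeb1 was 1.23-fold higher (7.48 and 7.77), and 14% of genes differed at least as much. Grhl2 was higher too (7.09 and 7.35, log2 difference 0.27), in the direction of Zeb1 and opposite to Epcam and Esrp1. The other members lay between 0.039 for Twist1 and 0.18 for Snai2, with Cdh2 at 0.16 and Snai1 at 0.13. For scale, 2 clusters of the same gene disagreed on this difference with an SD of 0.24 per cluster.

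In the head Snai1 was lower in the knockout (6.52 and 6.24, log2 difference -0.27), and 7.11% of genes differed at least as much in either direction. Epcam and Twist1 were each at -0.10, Cdh2 at -0.087, Zeb1 at 0.030, Snai2 at 0.024 and Esrp1 at 0.040. These lie within 0.18, the SD per cluster of the disagreement between 2 clusters of a gene in the head. Both clusters are read on the same arrays, so this SD holds no spread between embryos. Cdh1 (0.15, the mean of its clusters) and Grhl2 (-0.035) did not reach the level for entry there. The brighter Cdh1 cluster did, at 7.74 in the wild-type and 7.88 in the knockout head (log2 difference 0.14).

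Over both tissues, the genotype effect of Epcam was -0.26 (SE 0.12, 95% interval -0.54 to 0.020, limma adjusted p = 0.919), and it was negative in 2 of 2 tissues. Zeb1 had an effect of 0.16 (SE 0.11, 95% interval -0.10 to 0.43, limma adjusted p = 0.965), positive in 2 of 2 tissues. Snai2 was positive in both tissues as well. Of the 10814 genes that entered both pairs, 48.7% had opposite signs in the 2 tissues. For the 7 members other than Epcam and Zeb1 the estimates ran from -0.11 for Esrp1 to 0.12 for Grhl2. Their 95% intervals lay between -0.38 and 0.39, and so leave room for differences of up to 0.39 on the log2 scale. A p that misses the threshold does not show that the genotypes are alike.

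The epithelial lists were uneven in the knockout shelves. Of 41 genes that entered, 28 were lower and 13 higher (median -0.11), where 44.8% of all genes were lower and the median over all genes was 0.021. All 10 trafficking and protease genes were lower (median -0.25), with Epn3, an epsin of endocytosis, at -0.59, Myo5c, a vesicle motor gene, at -0.50 and Mal2 at -0.47. Of 23 adhesion genes 16 were lower, with the tight junction genes Cldn3 at -0.74 (6.99, against 7.74 in wild type) and Ocln at -0.54. Others were higher, such as the hemidesmosome-linked laminin gene Lamb3 (0.56) and the desmosomal plakophilin gene Pkp1 (0.40). Of 8 epithelial factors 6 were higher, with Klf4 and Tfap2c each at 0.36, as Grhl2 was. Tfap2c was under the level for entry in the wild-type shelves (6.11) and entered through the knockout array (6.47). With no filter 8 of 13 factors were higher and 5 lower (median 0.092). None of the 41 genes that entered was 2-fold different. With no filter 34 of 50 were lower in the knockout shelves (median -0.11), where 51.3% of all 22180 genes were. In the head, 14 of the 27 epithelial genes that entered were lower and 13 higher in the knockout (median -0.013), and with no filter 22 of 50 were lower, where 47.8% of all genes were. The trafficking and protease genes split evenly there, with 3 higher and 3 lower (median 0.037). Mal2 was higher at 0.47, about as far from 0 as in the shelves and opposite in sign. It was just under the level for entry in the wild-type head (6.14) and entered through the knockout array (6.60).

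**Figure D5:**
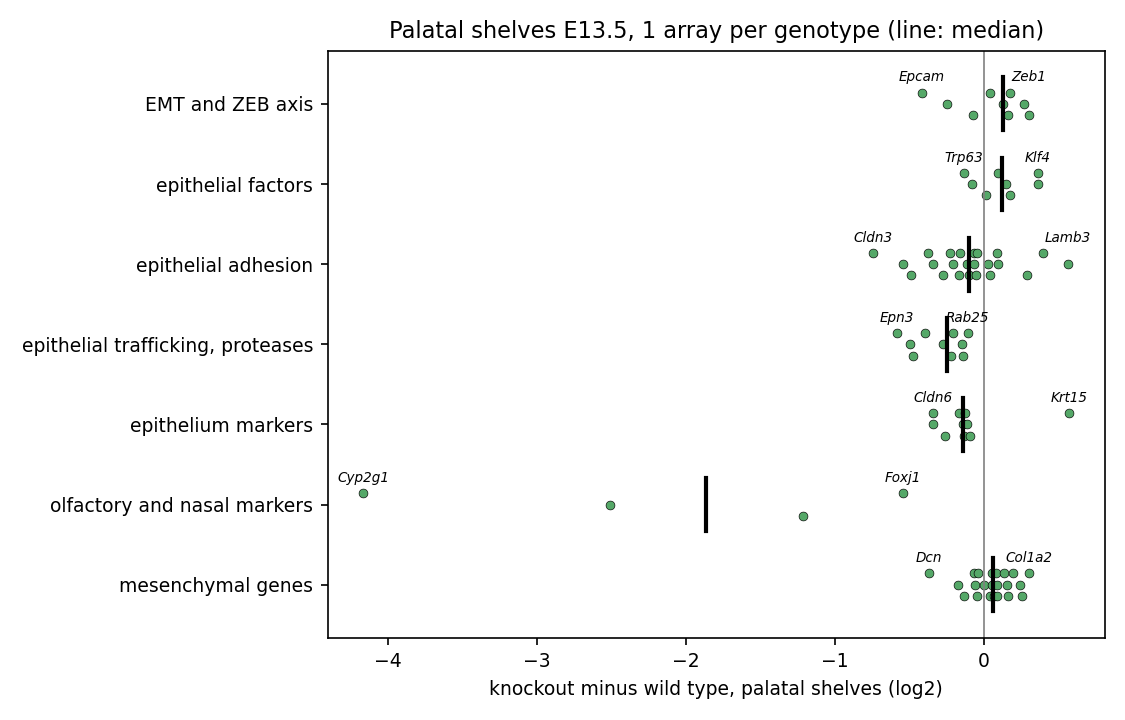
Knockout minus wild type in the palatal shelves (log2, 1 array per genotype, horizontal axis) for the genes of each list that entered; points are genes, jittered vertically, black lines are medians, and the lowest and highest gene of each list are named. Trafficking and protease genes all lie below 0, from Epn3 at -0.59 upward, while the adhesion list runs from Cldn3 at -0.74 to Lamb3 at 0.56.

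Markers of another epithelium were lower in the knockout shelves, as Epcam was. Muscle markers (11 of 11 lower, median -1.29) and leukocyte markers (5 of 6 lower, median -0.26) were lower there too. Of 11 olfactory and nasal epithelium markers 4 entered and 4 of 4 were lower in the knockout, from Cyp2g1 at -4.17 (9.56 in wild type and 5.39 in the knockout) to the cilia factor gene Foxj1 at -0.54. Of all genes that entered in the shelves, 44.8% were lower and 55.2% higher. Cyp2g1 and Bpifa1 were under 6.16 on both head arrays and high in the wild-type shelves. With no filter, 51.3% of all 22180 genes were lower in the knockout shelves. Of all 11 markers 9 were lower and 2 higher, with a median of -0.50 against -1.86 for the 4 that entered. Their summed level on the linear scale was 2038 in the wild-type and 610.3 in the knockout shelves, against 438.2 and 431.1 in the wild-type and knockout head. Omp, a marker of mature olfactory neurons, was between 5.14 and 5.61 on every array, under the level for entry. The epithelium markers had a summed level of 4648 and 4400 in the wild-type and knockout shelves, with 9 of 10 lower, among them Krt19 and Cldn6, each at -0.34, and Krt18 (-0.27), whereas Krt15, a keratin of basal cells, was higher at 0.57. Neuron markers were higher in the knockout shelves (13 of 14, median 0.63, summed level 3563 and 5239), beside the higher values of Zeb1 and Cdh2, where 55.2% of all genes were higher. Of the 8 neural progenitor markers that entered, 6 were lower (median -0.55), from Emx2 at -1.19, where 44.8% of all genes were lower. Sox1 was higher at 1.147. Each of these 2 genes entered through 1 shelf array. Emx2 was at 7.05 in the wild-type and 5.86 in the knockout shelves, and Sox1 at 5.44 and 6.58, so the sizes are uncertain. Over all 11 neural progenitor markers 9 were lower, with a median of -0.28. The part of these cell types in the values of the members was not tested.

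Mesenchymal genes differed little with genotype. In the shelves 14 of 22 were higher in the knockout (median 0.061), from Dcn, the decorin gene, at -0.37 to Col1a2, a chain of type I collagen, at 0.30, and in the head 12 of 22 were (median 0.0043). Of all genes that entered, 55.2% were higher in the shelves and 44.5% in the head. The wider EMT factors had medians of 0.091 in the shelves, with Lef1 at 0.63 and Sox4 at 0.44, and 0.028 in the head, with Twist2 at 0.31. TGF-beta genes had medians of 0.12 in the shelves, where Tgfbr3 was at 0.38 and Tgfb3 at 0.24, and -0.012 in the head. The reported miR-200 targets had a median of 0.14 in the shelves, with 15 of 19 higher, where 55.2% of all genes were, and Flt1, a VEGF receptor gene of endothelium, at 0.63; in the head the median was -0.018 and 6 of 19 were higher, where 44.5% of all genes were higher and 55.5% lower.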

How the data were processed

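RNA of 4 samples (1 per group, from the sample titles; in the description field the shelf samples are called heads too) was labelled with biotin from 100 ng of total RNA, per the labels' protocols. The authors deposited log2 values per transcript cluster. The submitters' processing notes name RMA and Affymetrix Expression Console, and the sources used here give no version, build or annotation. RMA sets arrays to a common distribution, which removes a shift that most genes share and shrinks the folds of dim genes. Arrays carry no read depth.

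Clusters with 1 symbol in the platform annotation (23521 of 41345; 1814 had several symbols and 16010 no listed gene) were averaged per gene; 23328 matched RefSeq (GRCm38.p6) by Entrez identifier. A gene entered a pair when its higher array reached 6.16, and the fit when its highest did. The fit used limma 3.58.1 (lmFit, eBayes, Benjamini-Hochberg over all genes that entered) in R 4.3.3 with tissue and genotype; 95% intervals use its 6.49 total degrees of freedom, of which 5.49 come from the prior (SD 0.107), so each SE rests mostly on genes at large. Tested on simulated data for shelves minus head (11999 genes), the fit found 98.2% of those given a log2 change of 1, while 144 among 1134 calls were wrong, above the 5% that the adjustment allows. Each of the 5 runs changed 200 genes and followed the additive model, whereas 3342 genes were called on the real arrays. These shares therefore need not hold for the calls reported here. Each p-value sets a difference against its SE. The part of that SE from these arrays is their departure from additive tissue and genotype effects, since no group has a replicate array.

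The members, the 21 gene lists and the tests were chosen with earlier results of these data known. Named were all measured members, up to 3 genes per list and comparison by size of difference and up to 5 nearest profiles; genes named beyond that rule (relatives or partners of members, printed promoters, the microRNA loci and markers such as Omp) were chosen after values were seen. Results of the muscle, endothelium, leukocyte and neural crest marker lists were medians for the knockout shelves of -1.29, 0.23, -0.26 and -0.058. Some list genes are not analysed here. Alternatives are given in the closing section.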

Additional observations from a re-analysis of the deposited data

Results flagged for a closer look

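For 6 of the 9 measured members the knockout differed from wild type in opposite directions between head and shelves, a difference that was not tested. The values, head first, were -0.27 and 0.13 for Snai1, -0.10 and 0.039 for Twist1, 0.15 and -0.074 for Cdh1, -0.087 and 0.16 for Cdh2, 0.040 and -0.25 for Esrp1 and -0.035 and 0.27 for Grhl2. Cdh1, as the mean of its clusters, and Grhl2 were under the level for entry in the head. Each rests on 1 pair of arrays per tissue, and of the genes that entered both pairs 4 of 7 members and 48.7% of all 10814 had opposite signs. Across the scalings tried, the shelf value of Twist1 ran from -0.0018 to 0.056 and so changed sign.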

How the results depend on the processing

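Recomputed values covered the differences of each member, the counts of members and the list medians under renormalization, the brightest cluster of a gene, other filters on dim genes, other fold limits and other limma priors. Of 307 single values and list medians, 301 stayed within the limits used. Zeb1 was the member that lost its tissue call, with values in the report, and Twist1 gained one with a mean-variance trend (limma adjusted p = 0.0278). The count of members lower in the shelves was 1 in place of 2 with quantile normalization again, with the brightest cluster and with no filter, and the count higher was 3 in place of 5 with the upper-quartile filter (7.79), under which Cdh1 and Grhl2 did not enter. The counts of members past a fold stayed at 0 at 1.5-fold. A 3-fold limit could only give 0 as well, since no member reached 2-fold. For genotype, 0 members were called under any prior or scaling tried (limma adjusted p from 0.721 to 0.999). The olfactory and nasal median in the knockout shelves was -1.22 with both arrays at the level for entry and -2.11 as a mean, in place of -1.86. The tissue difference of Cdh1 ran from 1.02 to 1.71 and its genotype effect from -0.047 (brightest cluster) to 0.045. Genes called for tissue numbered 3342, against 2474 of 22180 with no filter and 2246 of 6359 with the upper-quartile filter. No paired analysis was possible because each group has 1 array and the labels give no replicate numbers. Signal over background limits the values of Snai1, Cdh1, Grhl2, Ehf, Cyp2g1, Bpifa1 and the microRNA loci. The same holds for Tfap2c, Mal2, Emx2 and Sox1. All of these lie near or under the level for entry on some arrays.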
